A study of Mus musculus with 10 samples.

Results

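The amino acid transporters described here are 68 mouse protein-coding genes of 8 solute carrier families, chosen by symbol from the 29972 genes in the tables. The rule took symbols beginning with Slc1a (6 genes), Slc3a (2), Slc6a (21), Slc7a (16), Slc15a (5), Slc36a (4), Slc38a (11) and Slc43a (3), and used no measured value. Slc7a6os, a neighbour of Slc7a6, met the rule by its letters although it encodes no transporter. RNA was sequenced from 10 libraries of liver cells sorted by flow cytometry. They comprised 4 of hepatocyte-derived peripheral cholangiocytes (HpC1 to HpC4), 3 of peripheral cholangiocytes (pC1 to pC3) and 3 of hepatocytes (H1 to H3). HpC and H had the genotype Alb-Cre+/-;Rbpjf/f;Hnf6f/f, and pC had Rbpjf/f;Hnf6f/f without Cre, so that every group carried the floxed alleles of Rbpj, which encodes the transcription factor through which Notch acts, and of Hnf6, which encodes a transcription factor of liver and bile duct. Cre was under the albumin promoter, which is active in hepatocytes and their fetal precursors. All mice had the strain label Mixed (C57BL/6, FVB, CD1). Postnatal ages were P124, P151, P144 and P139 for HpC, P151, P119 and P142 for pC, and P134, P139 and P139 for H, in order of replicate number, as are all values listed per library below. The labels do not say whether H2 and H3, which share an age, came from separate animals, so p-values against H may measure a spread that is partly technical. HpC4 had the age and genotype of H2 and H3. The labels do not say whether it came from the same mouse as either, so HpC and H may not be independent. HpC and pC were sorted from the nonparenchymal cells left after further digestion and H after perfusion alone, so cell type and isolation route cannot be told apart in comparisons with H. HpC and pC differed in genotype as well as in origin, and these cannot be told apart either.

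Amino acids cross membranes through carriers that differ in the amino acids they accept and in what drives them. Some couple uptake to the sodium gradient or to protons, while exchangers trade an amino acid inside the cell for another outside, and several of the exchangers work only as pairs of a heavy chain (Slc3a1 or Slc3a2) and a light chain of family 7. Hepatocytes take up glutamine, alanine and other amino acids from the portal blood for urea, glucose and protein synthesis, and cholangiocytes, the epithelial cells that line bile ducts, reabsorb amino acids and peptides from bile.

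Promoter sequences are shown for 4 genes that stand out in the results below: Slc38a4, with TPM assigned to transcripts from 2 start sites, Slc43a2 and Slc6a20a, which with Slc38a4 passed the test between HpC and pC, and Slc3a1, which had 1 of the largest differences between hepatocytes and cholangiocytes. Whether these sequences bear on the levels was not tested. Each is the stretch just before the RefSeq start (GRCm38.p6), printed 5′ to 3′ on the strand of the gene and shortened where a protein-coding exon reached into it. Capitals mark CAAAGTCCA, a core of sites bound by the hepatocyte factor HNF4A, searched on both strands.
Slc38a4 upstream start, chr15:97055957-97056206, minus strand: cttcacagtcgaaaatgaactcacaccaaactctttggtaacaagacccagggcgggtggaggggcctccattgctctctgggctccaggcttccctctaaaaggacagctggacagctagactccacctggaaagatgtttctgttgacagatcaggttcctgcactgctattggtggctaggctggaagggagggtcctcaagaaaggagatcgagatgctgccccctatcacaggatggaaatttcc
Slc38a4 downstream start, chr15:97020360-97020609, minus strand: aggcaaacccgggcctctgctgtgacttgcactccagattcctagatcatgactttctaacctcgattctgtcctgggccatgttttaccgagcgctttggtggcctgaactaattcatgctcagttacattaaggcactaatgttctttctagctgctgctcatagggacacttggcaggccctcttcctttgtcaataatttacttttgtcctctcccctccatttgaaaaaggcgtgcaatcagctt
Slc43a2, chr11:75531444-75531693, plus strand: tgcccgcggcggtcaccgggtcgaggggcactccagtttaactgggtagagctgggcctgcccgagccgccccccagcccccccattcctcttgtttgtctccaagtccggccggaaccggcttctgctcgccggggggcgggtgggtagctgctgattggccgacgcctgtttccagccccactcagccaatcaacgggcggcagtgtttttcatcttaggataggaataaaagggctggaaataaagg
Slc6a20a, chr9:123678886-123679082, minus strand: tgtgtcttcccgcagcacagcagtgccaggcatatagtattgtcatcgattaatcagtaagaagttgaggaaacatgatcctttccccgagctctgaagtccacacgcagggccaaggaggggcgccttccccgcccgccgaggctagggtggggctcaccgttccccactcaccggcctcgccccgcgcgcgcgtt
Slc3a1, chr17:85028097-85028346, plus strand: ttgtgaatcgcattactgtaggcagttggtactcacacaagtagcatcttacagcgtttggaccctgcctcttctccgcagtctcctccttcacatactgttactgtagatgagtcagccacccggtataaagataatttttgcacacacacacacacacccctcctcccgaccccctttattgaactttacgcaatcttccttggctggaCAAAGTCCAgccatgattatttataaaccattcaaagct
In Slc3a1 the motif ended 30 bases before the start. It was present in 156 of 32851 promoter entries (0.475%), each running from 250 bases before to 50 bases after a start, and in 1 of the 70 entries of the members, which covered 49 of the 68 genes. TGATGNAA, the core of the element bound by ATF4 with C/EBP factors, did not occur in the windows printed; on both strands it was in 1304 entries (3.97%) and in 6 of the members' 70 (8.57%), those of Slc1a4, Slc6a21, Slc7a7, Slc7a11 and Slc15a5. The windows of Slc43a2 and Slc6a20a were rich in CG (17 and 16 CG, 62.8% and 61.4% G or C), against a median of 6 CG and 52.4% over all entries, whereas the upstream and downstream windows of Slc38a4 held 3 and 5 CG.

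The deposited values were TPM, transcript abundances scaled to the same total in each library. They were summed per gene and rescaled between libraries, giving scaled TPM. TPM holds no depth, so the number of reads behind a value is unknown, no detection limit could be given, and a value of 0 is described as listed at 0. The 5 hepatocyte markers (Alb, Apoa1, Cps1, Hnf4a, Ttr) summed to 69677 to 80994 scaled TPM in H, 2853 to 5370 in HpC and 978 to 2503 in pC. The 5 cholangiocyte markers (Epcam, Krt7, Krt19, Sox9, Spp1) summed to 18.6 to 26.9, 1451 to 2404 and 4949 to 5208 in the same order. The hepatocyte sum was thus highest in H, and the cholangiocyte sum was lowest there. Between HpC and pC the cholangiocyte sum followed Spp1 (593 to 1289 against 4056 to 4410), the only marker of its list called. Mean Sox9 was also lower in HpC (102 against 198) and Epcam was near level (145 against 147). Mean Krt19 (673 against 456) and Krt7 (120 against 66.4) were higher in HpC. HpC1 and HpC2 stood apart. Pancreatic acinar markers summed to 137731 in HpC1 and to at most 97.3 in the other HpC libraries, with up to 624 in pC, and squamous epithelial markers to 38313 in HpC2 and at most 12.6 in every other library. For genes called between HpC and pC and for Slc1a3, Slc1a4, Slc7a5, Slc7a13 and Slc38a2, values without 1 or both of these libraries are also given. In sorted bulk RNA, fewer cells of a type and less RNA per cell cannot be told apart.

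Of the 68 genes, 37 reached 1 TPM in at least 3 libraries and entered the test, limma on log2(scaled TPM + 1) with adjustment over all 14765 genes and a threshold of 5%. Of the other 31, 5 were listed at 0 in every library (Slc1a6, Slc6a11, Slc6a21, Slc7a12 and Slc36a3), 18 stayed under 1 scaled TPM throughout and 8 reached it in at least 1 library. On TPM as deposited, HpC libraries had 33 to 36 of the genes at 1 TPM or more, pC 29 to 33 and H 18 to 20. These counts depend on scaling: scaling factors were 0.499 to 0.585 in H and 1.53 to 1.59 in pC. A deposited TPM of 1 was thus a higher cutoff on the scaled values in H than in pC. The summed level was more concentrated in hepatocyte libraries. The 5 highest genes made up 70.4% to 71.6% of it in H, against 45.9% to 56.8% in HpC and 54.7% to 59.4% in pC. The summed level was 1213, 1313 and 1261 scaled TPM in H1 to H3, 519, 391, 387 and 396 in HpC1 to HpC4 and 385, 401 and 432 in pC1 to pC3. The full separation of H from the other groups belonged to the rescaled values. As deposited, the 68 genes held 0.0635% to 0.0709% of TPM in H, 0.0588% to 0.0686% in pC and 0.0347% to 0.0639% in HpC, and these ranges overlapped. HpC1, HpC2 and HpC3 (0.0347%, 0.0451% and 0.056%) were below every H library as deposited too, and HpC4 was at 0.0639%.

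The leading genes also differed. In H the highest means were those of Slc38a4 (316 ± 59.9 scaled TPM, SD, n = 3), Slc38a3 (275 ± 21.2), Slc3a1 (125 ± 21.6), Slc6a13 (95.8 ± 9.56) and Slc7a2 (84.8 ± 7.08). In HpC they were Slc38a10 (57.9 ± 11.9, n = 4), Slc38a2 (46.8 ± 2.48), Slc38a6 (39.5 ± 10.3), Slc6a6 (36.4 ± 6.85) and Slc3a2 (24.7 ± 10.8). In pC they were Slc38a6 (49.4 ± 20.9, n = 3), Slc38a10 (49.2 ± 4.41), Slc43a2 (46.6 ± 4.34), Slc38a2 (38.9 ± 9.22) and Slc38a4 (38.6 ± 11.7). None of the 5 leaders of H was among the 5 of HpC, and 1 of them, Slc38a4, was among the 5 of pC. Of the Slc38a10 signal 33.2% came from coding transcripts, and 35.5% of the 50-base windows of Slc38a6 transcripts occur in other genes, so these 2 levels are uncertain as levels of the coding genes.

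**Figure D1:**
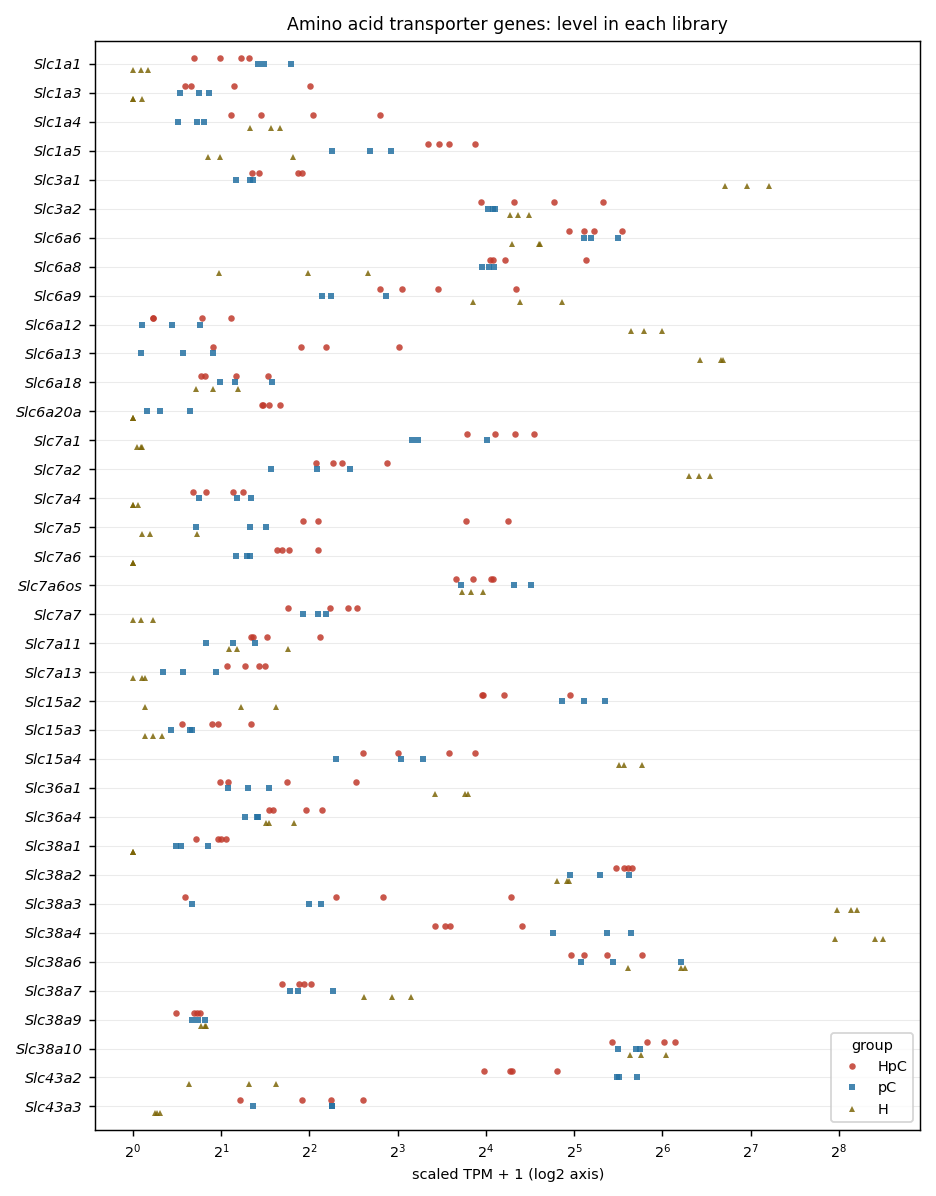
Scaled TPM + 1 on a log2 axis for the 37 tested genes, 1 point per library (circles HpC, squares pC, triangles H). Slc38a3, Slc3a1, Slc6a12, Slc6a13 and Slc7a2 have their 3 H libraries far to the right of the other 7, while Slc7a1, Slc43a2 and Slc15a2 have them far to the left.

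The comparison of HpC with pC asks where cholangiocytes that arose from hepatocytes differ from ordinary peripheral ones. Few carriers passed: 1 gene was higher in HpC (Slc6a20a), 2 were lower (Slc38a4 and Slc43a2), and 34 of the 37 tested did not pass. That is 8.11% of the tested members, against 4.54% of all genes tested (1.99% higher, 2.55% lower). The median log2 difference was 0.34 over the 37 and -0.01 over all genes.

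Slc38a4 (ENSMUSG00000022464, chr15:96994820-97055956, mm10) encodes SNAT4, a sodium-coupled carrier of neutral amino acids of the liver, and is an imprinted gene. Its level was 20.3, 9.75, 11.1 and 10.6 scaled TPM in HpC1 through HpC4, 49.2, 40.4 and 26.1 in pC1 to pC3, and 248, 339 and 360 in H1 to H3. All HpC libraries lay below all pC libraries, and all pC libraries below all H libraries. Slc38a4 fell by 1.52 ± 0.29 (log2, SE) in HpC relative to pC (limma adjusted p = 0.0153), by 4.55 ± 0.29 relative to H (5.58e-07), and in pC by 3.03 ± 0.30 relative to H (1.4e-05). Summed hepatocyte markers ran the other way between the cholangiocyte groups, 2853 to 5370 scaled TPM in HpC and 978 to 2503 in pC. The sum was mostly Alb (2505 to 4759 in HpC, 782 to 2100 in pC). Of the 5 markers Alb alone had no overlap, and 0 were called between HpC and pC. Their part in the Slc38a4 difference was not tested. Without pC1 the difference between HpC and pC was -1.32 (adjusted p = 0.0727) and without pC2 -1.46 (0.0774), past the threshold in neither case. Without HpC1 and HpC2 together it was -1.66 (adjusted p = 0.0177).

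Slc43a2 (ENSMUSG00000038178, chr11:75531694-75577575) encodes LAT4, which lets branched-chain amino acids, phenylalanine and methionine pass down their gradient. Its level was 18.3, 14.8, 18.7 and 27.0 scaled TPM in HpC1 through HpC4, 51.6, 43.8 and 44.5 in pC1 to pC3, and 0.562, 2.09 and 1.48 in H1 to H3. The order differed from that of Slc38a4: pC was highest, HpC intermediate and H lowest, with no overlap. Slc43a2 fell by 1.23 ± 0.25 in HpC relative to pC (limma adjusted p = 0.0226). It was higher than in H by 3.15 ± 0.25 in HpC (2.76e-06) and by 4.38 ± 0.27 in pC (5.33e-07). The call against pC was lost without HpC1 (adjusted p = 0.0505), HpC3 (0.0622), pC1 (0.0985), pC2 (0.0814) or pC3 (0.0621), and without HpC1 and HpC2 together (0.13, at -0.98). Of its 50-base windows 8.75% are shared with other genes, an antisense gene among them.

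Slc6a20a (ENSMUSG00000036814, chr9:123634770-123678885) encodes a sodium-dependent carrier of proline and related imino acids. Its level was low throughout, 2.19, 1.77, 1.79 and 1.92 scaled TPM in HpC1 through HpC4 and 0.238, 0.116 and 0.562 in pC1 to pC3, and it was listed at 0 in all 3 H libraries. The 4 HpC libraries lay close together and above all pC libraries. The gene met the filter through HpC alone, as Slc15a3 did among the 37, so its entry into the test depended on the group in which it is high, and its call is no support for a difference of the family. Slc6a20a rose by 1.17 ± 0.16 in HpC relative to pC (limma adjusted p = 0.00358), a value that understates the ratio because levels near the pseudocount of 1 are compressed. Its neighbour Slc6a20b shares sequence with it (26.7% of Slc6a20a windows occur in another gene), and the 2 summed were 1.89 to 2.52 in HpC, 0.25 to 0.911 in pC and 0.0762 to 0.315 in H. The call held under every alternative that gave a value (highest adjusted p = 0.03). With HpC1 and HpC2 both left out the gene no longer met the 1 TPM filter and had no value.

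**Figure D2:**
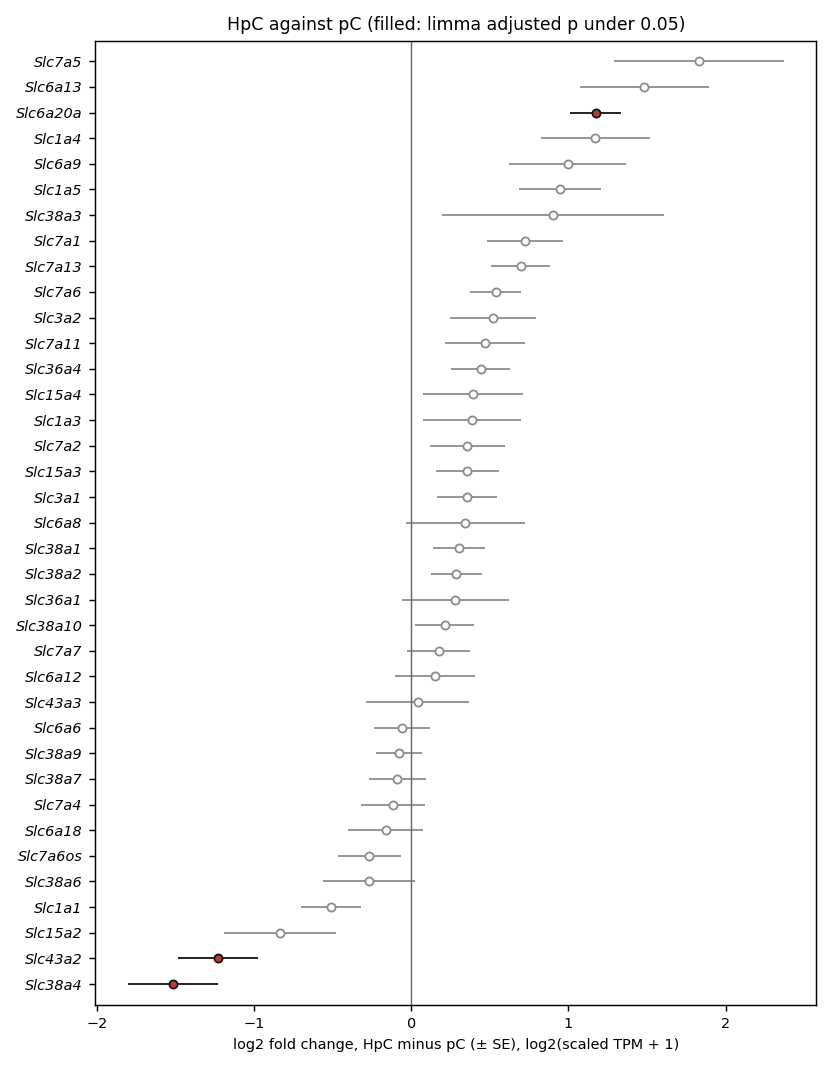
Log2 fold change of HpC minus pC for the 37 tested genes with bars of 1 SE, ordered by size; filled points passed the limma threshold. Slc38a4 (-1.52) and Slc43a2 (-1.23) are filled at the low end and Slc6a20a (1.17) at the high end, while Slc7a5 (1.83) and Slc6a13 (1.48) lie further right with wider bars and are open.

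The largest difference that did not pass was that of Slc7a5. Slc7a5 (LAT1), the exchanger that brings leucine and other large neutral amino acids into growing cells, was at 18.1, 12.7, 3.27 and 2.8 scaled TPM in HpC1 through HpC4, 0.639, 1.52 and 1.84 in pC1 to pC3 and 0.148, 0.0752 and 0.655 in H1 to H3. The HpC libraries were all above the pC libraries but spread widely, with HpC1 and HpC2 highest. The log2 difference from pC was 1.83 ± 0.54 (limma adjusted p = 0.0979) and was 0.87 (0.183) without HpC1 and HpC2 together. Slc7a5 was called on TPM as deposited (adjusted p = 0.0435) and without HpC4 (0.0402). Its heavy chain Slc3a2 (CD98hc) was at 39.1, 26.2, 18.9 and 14.4 in HpC1 to HpC4, 15.3 to 16.2 in pC and 18.4 to 21.5 in H. HpC1 and HpC2 were again the highest 2, the groups overlapped, and no comparison of Slc3a2 passed (HpC minus pC 0.52 ± 0.27, adjusted p = 0.368). The levels of other cell types' markers in HpC1 and HpC2 are given above, and their part in these values was not tested.

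Neither neutral exchanger of family 1 passed between HpC and pC. Slc1a5 (ASCT2), which exchanges glutamine and other small neutral amino acids, was at 11.0, 13.8, 9.13 and 10.1 scaled TPM in HpC1 through HpC4, 3.79, 6.59 and 5.45 in pC and 0.987, 0.805 and 2.53 in H. The 3 groups did not overlap. The difference of HpC from pC was 0.94 ± 0.26 (limma adjusted p = 0.0782), while HpC was higher than H by 2.35 ± 0.26 (2.78e-05) and pC by 1.40 ± 0.28 (0.00156). Coding transcripts held 27.4% of the Slc1a5 signal, and with coding transcripts alone HpC minus pC was 1.06 (adjusted p = 0.0514). Slc1a4 (ASCT1), a carrier of serine, alanine and cysteine, was at 3.12, 5.97, 1.74 and 1.17 in HpC, 0.423 to 0.745 in pC and 1.51 to 2.18 in H, and with all libraries passed in no comparison (HpC minus pC 1.17 ± 0.34, adjusted p = 0.0956). HpC1 and HpC2 were its highest libraries, and without both HpC minus pC was 0.64 (0.147) and pC minus H -0.80 (0.00459). Slc1a4 was called between HpC and pC with array weights (0.03) and without HpC4 (0.0338), and Slc1a5 without H3 (0.0398). Of the 2, Slc1a4 and not Slc1a5 has TGATGNAA in a promoter entry.

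Comparisons with hepatocytes divided the families. HpC differed from H in 28 of the 37 tested genes, 18 higher and 10 lower (75.7%, against 59.9% of all genes tested, 30.7% higher and 29.2% lower), and pC in 23, 13 higher and 10 lower (62.2%, against 59.6%, 31.1% and 28.6%). The share for pC was close to that of all genes. On TPM as deposited, without rescaling, the counts were 24 higher and 8 lower in HpC, where 51.2% of all genes were higher and 10.3% lower, and 23 higher and 8 lower in pC, where 63.4% were higher and 8.5% lower. The larger counts of higher members thus came with larger shares over all genes. Median differences over all genes from H were then 0.87 and 1.20 instead of 0.08 and 0.11, with -0.36 instead of -0.01 for HpC against pC. Both comparisons share the H libraries, so their values stand side by side below and are not 2 independent results.

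Among the heavy chains, Slc3a1 (rBAT, ENSMUSG00000024131, chr17:85028376-85064236), the partner of the cystine and cationic amino acid exchangers of kidney, was at 147, 123.6 and 104 scaled TPM in H1 to H3, 2.65, 1.55, 2.78 and 1.69 in HpC and 1.51, 1.58 and 1.25 in pC. All H libraries were far above the other 7. Slc3a1 fell by 5.32 ± 0.19 in HpC (limma adjusted p = 4.1e-08) and by 5.67 ± 0.20 in pC (5.31e-08) relative to H. Slc3a1 made up 84.9% to 88.2% of the 2 heavy chains in H, 5.58% to 12.8% in HpC and 7.3% to 8.95% in pC, shares that do not depend on scaling between libraries. Neither known light-chain partner was high in H: Slc7a9 was listed at 0 in all 3 H libraries, and Slc7a13 was at 0.105, 0 and 0.0752. Of the windows of Slc3a1, 24.8% are shared with its neighbour Prepl.

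Of the 10 light chains, 5 were tested, and 4 of these were higher in HpC than in H and 3 in pC (30.7% and 31.1% of all genes were higher). Slc7a6 and Slc7a7 are the y+L exchangers, which release arginine or lysine from the cell in return for a neutral amino acid and sodium. Slc7a7 was at 4.81, 2.38, 3.7 and 4.44 scaled TPM in HpC, 3.27, 3.54 and 2.81 in pC and 0.168, 0.0642 and 0 in H, higher by 2.14 ± 0.20 in HpC (limma adjusted p = 8.48e-06) and 1.96 ± 0.22 in pC (2.61e-05). Slc7a6 was at 2.09 to 3.3 in HpC and 1.24 to 1.5 in pC and was listed at 0 in all H libraries; it was called higher in both. Neither gene overlapped between H and the cholangiocyte groups. Slc7a13, a light chain that pairs with Slc3a1 in kidney, was at 1.69, 1.1, 1.41 and 1.84 in HpC and 0.273, 0.488 and 0.92 in pC. It was called higher than H in HpC (1.23 ± 0.19, 0.000272) and in pC (0.54 ± 0.20, 0.0418). The call in pC was lost under 7 of 20 alternatives, among them leaving out HpC3 (0.0588), pC2 (0.0801), pC3 (0.169), H1 (0.0712), H2 (0.108) or H3 (0.0799). For Slc7a13 HpC minus pC, without overlap, was 0.70 ± 0.19 (0.0743). This difference was called with array weights (0.014) and without HpC2 (0.80, 0.0472), and not without HpC1 and HpC2 together (0.81, 0.103). Slc7a11 (xCT), the cystine-glutamate exchanger, was at 1.52 to 3.34 in HpC, 0.772 to 1.61 in pC and 1.13 to 2.39 in H and passed nowhere.

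The cationic carriers Slc7a1 and Slc7a2, which bring arginine, lysine and ornithine into cells, were arranged in opposite ways. Slc7a1 (ENSMUSG00000041313, chr5:148327410-148399904), the widely expressed form, was at 12.8, 16.2, 22.3 and 19.1 scaled TPM in HpC1 through HpC4, 7.94, 8.36 and 15.1 in pC and 0.0783, 0.0693 and 0.0322 in H. Slc7a2 (ENSMUSG00000031596, chr8:40862396-40922308), the form of liver, was at 6.34, 3.21, 3.81 and 4.15 in HpC, 1.96, 4.49 and 3.25 in pC and 77.8, 84.5 and 92.0 in H. For both genes H stood wholly apart, below for Slc7a1 and above for Slc7a2. Slc7a1 was higher than in H by 4.11 ± 0.24 in HpC (limma adjusted p = 3.73e-07) and 3.38 ± 0.26 in pC (1.97e-06), and Slc7a2 fell by 4.03 ± 0.24 (4.22e-07) and by 4.38 ± 0.26 (3.92e-07). As a share of the 5 cationic genes, which needs no scaling, Slc7a2 made up 99.5% to 99.6% in H, 14.0% to 30.2% in HpC and 16.4% to 30.9% in pC. HpC and pC did not differ past the threshold in either gene (Slc7a1 0.73 ± 0.24, adjusted p = 0.141; Slc7a2 0.36 ± 0.24, 0.487). Slc7a4, a related protein, was higher than H in both (0.95 ± 0.20 and 1.07 ± 0.22) at 0.604 to 1.54 scaled TPM.

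**Figure D3:**
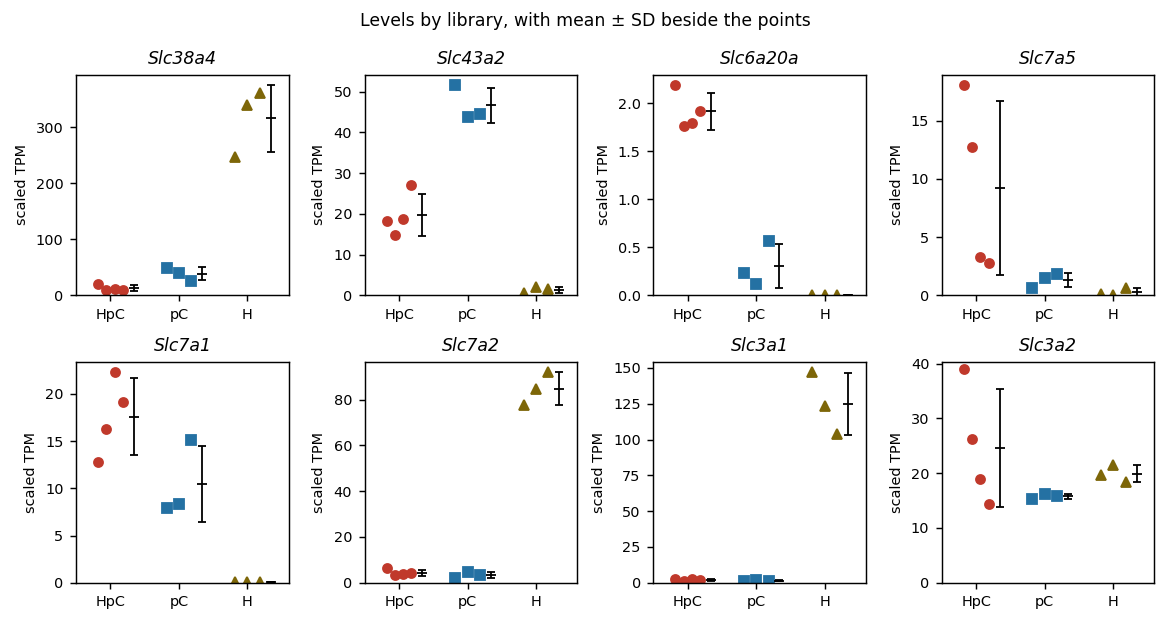
Scaled TPM in each library for 8 genes, on axes that start at 0, with mean ± SD beside the points of each group (n = 4 HpC, 3 pC, 3 H). Slc7a1 is near 0 in H and Slc7a2 and Slc3a1 are near 0 in HpC and pC, while Slc3a2 has its 3 H libraries inside the HpC range of 14.4 to 39.1.

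In family 6, the GABA carriers of liver were higher in hepatocytes. Slc6a13 (GAT2) takes up GABA and taurine and Slc6a12 (BGT1) takes up betaine and GABA, and the 2 genes are neighbours on chromosome 6. Slc6a12 was at 49.1, 62.9 and 54.4 scaled TPM in H, 0.169 to 1.17 in HpC and 0.0751 to 0.698 in pC, and fell by 5.22 ± 0.25 in HpC (limma adjusted p = 1.46e-07) and by 5.37 ± 0.27 in pC (1.77e-07). Slc6a13 was at 102, 100 and 84.8 in H, 7.09, 2.75, 3.57 and 0.875 in HpC and 0.876, 0.489 and 0.0658 in pC, with differences from H of -4.59 ± 0.41 in HpC (5.77e-06) and -6.07 ± 0.44 in pC (1.39e-06). The lowest HpC library for Slc6a13 sat at the level of the highest pC library, and HpC minus pC was 1.48 ± 0.41 (adjusted p = 0.0782). Summed hepatocyte markers, mostly Alb, were also higher in HpC than in pC, with the values given beside Slc38a4. Of the 5 markers 0 were called between HpC and pC, and their part in the Slc6a13 difference was not tested. The 2 genes made up 74.6% to 78.2% of the summed Slc6 level in H, 1.59% to 10.2% in HpC and 0.23% to 2.39% in pC.

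Of the osmolyte and energy carriers of the same family, Slc6a6 and Slc6a8 were higher in cholangiocytes. Slc6a6 (TauT), the taurine carrier, was at 29.7 to 45.7 scaled TPM in HpC, 33.5 to 44.1 in pC and 18.6 to 23.4 in H, higher by 0.70 ± 0.18 in HpC (limma adjusted p = 0.00626) and 0.76 ± 0.19 in pC (0.00589). Slc6a8, the creatine carrier, was at 15.5, 34.1, 16.0 and 17.6 in HpC, 14.5, 16.1 and 15.3 in pC and 0.967, 2.95 and 5.35 in H, higher by 2.50 ± 0.38 (0.000251) and 2.15 ± 0.41 (0.0011). HpC2 was the highest library for Slc6a8, and neither gene overlapped between H and the other groups. Slc6a9 (GlyT1), a glycine carrier, was at 5.97 to 19.2 in HpC, 3.4 to 6.31 in pC and 13.5 to 28.1 in H. It was called lower in pC (-1.95 ± 0.40, 0.00189) and just so in HpC (-0.96 ± 0.37, 0.0486), where ranges overlapped and the sign turned to 0.085 on TPM as deposited. The call in HpC was lost under 13 of 20 alternatives, among them leaving out HpC2 (adjusted p = 0.103), HpC3 (0.112), HpC4 (0.119), pC1 (0.0591), pC2 (0.0623), H1 (0.099) or H2 (0.174), and that in pC on TPM as deposited (-0.55, 0.154). Of its windows 26.3% are shared with its neighbour Ccdc24. Slc6a18, a kidney carrier of neutral amino acids, was at 0.638 to 1.98 in all libraries and passed nowhere.

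Sodium-coupled neutral carriers of family 38 divided into genes far higher in hepatocytes and genes near in level. Slc38a3 (SNAT3, ENSMUSG00000010064, chr9:107650634-107669530), which carries glutamine, asparagine and histidine into or out of hepatocytes, was at 280, 293 and 252 scaled TPM in H, 18.5, 3.93, 6.14 and 0.509 in HpC and 3.38, 2.99 and 0.59 in pC. H stood far above, and within HpC the levels ran over a wider range than in pC. Slc38a3 fell by 5.60 ± 0.71 in HpC (limma adjusted p = 6.68e-05) and by 6.51 ± 0.75 in pC (3.85e-05). Slc38a3 and Slc38a4 together made up 76.4% to 81.1% of the summed Slc38 level in H, 6.33% to 16.0% in HpC and 13.6% to 30.8% in pC. Slc38a2 (SNAT2), a widely expressed carrier that cells raise when amino acids are scarce, was at 43.6, 48.0, 46.4 and 49.3 in HpC, 30.0, 48.4 and 38.3 in pC and 29.6, 27.0 and 29.4 in H. It was called higher than H in HpC (0.69 ± 0.16, 0.00411) and not in pC (0.40 ± 0.17, 0.0681). The difference between these, HpC minus pC, was 0.29 ± 0.16 (0.4). Slc38a2 was also called in pC without HpC2 (0.49, 0.0369) and without HpC1 and HpC2 together (0.49, 0.0384), though not without HpC1 alone (0.40, 0.0726). Slc38a1 (SNAT1) was at 0.639 to 1.08 in HpC and 0.4 to 0.801 in pC, was listed at 0 in H, and was called higher in both.

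The lysosomal carriers included genes lower in both cholangiocyte groups. Slc38a7, a lysosomal glutamine exporter, was at 5.16 to 7.86 scaled TPM in H, 2.22 to 3.05 in HpC and 2.43 to 3.81 in pC. It was called lower in HpC (-1.02 ± 0.18, limma adjusted p = 0.000814) and in pC (-0.93 ± 0.20, 0.00228), but on TPM as deposited was not called in HpC (-0.08) and turned to 0.32 in pC. Slc36a1 (PAT1), a proton-coupled carrier of small amino acids, was at 9.7, 13.0 and 12.5 in H, 0.984 to 4.77 in HpC and 1.11 to 1.91 in pC, and fell by 2.07 ± 0.34 in HpC (0.000424) and by 2.35 ± 0.36 in pC (0.00029). Slc15a4 (PHT1), which moves histidine and dipeptides out of endosomes and lysosomes, was at 46.5, 44.4 and 53.6 in H, 5.1 to 13.6 in HpC and 3.94 to 8.76 in pC, and fell by 2.35 ± 0.32 (0.000115) and by 2.74 ± 0.34 (6.45e-05). None of these 3 overlapped between H and the other groups. Slc38a9, the lysosomal arginine sensor of mTORC1, stayed between 0.409 and 0.773 in all libraries and Slc36a4 between 1.42 and 3.42, and neither passed in any comparison.

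The peptide carrier Slc15a2 was higher in cholangiocytes. Slc15a2 (PEPT2), a proton-coupled carrier of di- and tripeptides, was at 14.6, 14.7, 17.4 and 29.9 scaled TPM in HpC1 through HpC4, 28.1, 33.5 and 39.8 in pC and 1.34, 2.07 and 0.102 in H. The cholangiocyte groups overlapped in the highest HpC library, and H lay below both. Slc15a2 was higher than in H by 3.28 ± 0.36 in HpC (limma adjusted p = 2.27e-05) and 4.11 ± 0.38 in pC (7.56e-06), and HpC minus pC was -0.83 ± 0.36 (0.253). Coding transcripts held 18.3% of its signal, and all of its TPM in H was assigned to a short noncoding transcript. Slc15a3, another endosomal peptide carrier, was at 0.473 to 1.53 in HpC, 0.35 to 0.589 in pC and 0.0977 to 0.261 in H. It was called higher than H in HpC (0.71 ± 0.20, 0.0113) and not in pC (0.35 ± 0.21, 0.184). Slc15a3 met the filter through HpC alone, so its entry into the test depended on the group in which it is high. Slc43a3, a family 43 protein known as a carrier of purine bases, was at 1.33 to 5.09 in HpC, 1.56 to 3.8 in pC and 0.193 to 0.239 in H, higher by 1.72 ± 0.33 (0.0012) and 1.68 ± 0.35 (0.00218).

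The glutamate carriers of family 1 were low. Slc1a1 (EAAT3) was at 0.983, 0.624, 1.33 and 1.49 scaled TPM in HpC, 1.8, 1.68 and 2.46 in pC and at most 0.127 in H, and was called higher than H in HpC (0.97 ± 0.19, limma adjusted p = 0.00142) and pC (1.48 ± 0.20, 0.000135). Slc1a3 (GLAST) was at 3.03, 1.22, 0.581 and 0.507 in HpC, 0.45 to 0.827 in pC and 0.0781, 0 and 0 in H, and passed against H in HpC (1.07 ± 0.31, 0.0134) and not in pC (0.68 ± 0.33, 0.103). The difference between HpC and pC, whose ranges overlapped, was 0.38 ± 0.31 (0.573). HpC1 was highest for Slc1a3, and without it HpC minus H was 0.79 (0.00914) and pC minus H 0.71 (0.0155), both past the threshold. Coding transcripts held 22.5% of the Slc1a1 signal and 16.3% of the Slc1a3 signal, and 41.5% of the windows of Slc1a1 are shared with another gene. With coding transcripts alone neither gene, nor Slc15a3, reached the filter.

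Transcript starts differed between groups in Slc38a4 and Slc3a2, as estimated by the authors' quantification from 50-base reads. The share of Slc38a4 TPM assigned to the transcript from the upstream start was 38.6%, 41.0%, 43.2% and 51.2% in HpC1 to HpC4, 53.0%, 53.1% and 48.6% in pC and 30.9%, 28.0% and 28.4% in H. The rest was assigned to the transcript from the downstream start, whose promoter is the second printed above. H was below both cholangiocyte groups, which overlapped in HpC4. The share of Slc3a2 TPM from its upstream start was 2.97% to 6.55% in HpC, 11.8% to 13.4% in pC and 18.3% to 28.7% in H, with no overlap between any of the 3 groups, although the summed level of Slc3a2 passed in no comparison. These shares are described without a test.

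**Figure D4:**
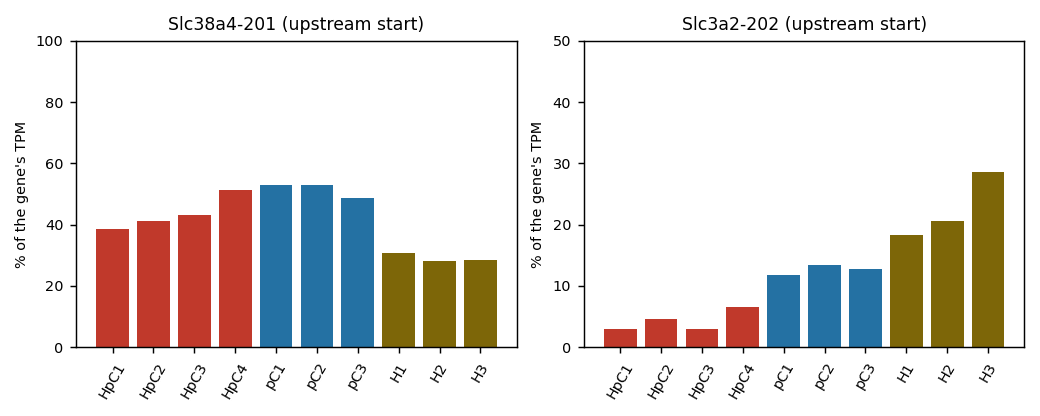
Percent of the TPM of a gene assigned to its transcript with the upstream start, 1 bar per library, for Slc38a4 (axis to 100) and Slc3a2 (axis to 50). H bars are lowest for Slc38a4 (28.0% to 30.9%) and highest for Slc3a2 (18.3% to 28.7%).

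Carriers high in a single HpC library were found among the genes that did not enter the test. Slc38a5 (SNAT5), a glutamine carrier, was at 45.6 scaled TPM in HpC1 and 0.0828 to 0.338 in the other HpC libraries, and at most 0.684 in pC and 0.42 in H. Slc7a8 (LAT2), a light chain of Slc3a2, was at 20.4 in HpC1, 0.324 to 0.621 in the other HpC and at most 0.369 elsewhere. HpC1 was the library with 137731 scaled TPM of acinar markers. In HpC2, the library with the squamous markers, Slc6a2 (the noradrenaline carrier) was at 3.69, Slc6a19 (a neutral amino acid carrier of gut and kidney) at 3.13, Slc6a14 (a broad carrier of neutral and cationic amino acids) at 1.68 and Slc15a1 (PEPT1) at 1.60. The other HpC libraries reached at most 0.0743, 0.123, 0.051 and 0.326 for these 4 genes. The part of the foreign cell type markers in these levels was not tested. The remaining 2 genes that reached 1 scaled TPM without passing the filter were Slc7a10, at 1.53 in HpC4 and 1.32 in pC3, and Slc43a1 (LAT3), at 1.17 to 1.48 in H and at most 0.366 in every other library.

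**Figure D5:**
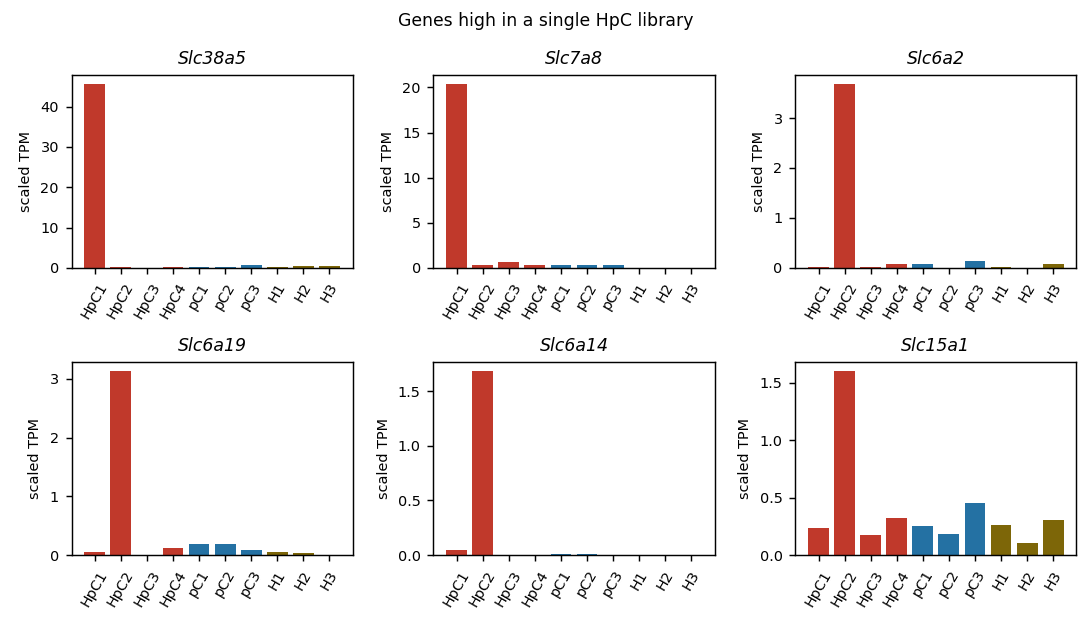
Scaled TPM in each of the 10 libraries for 6 genes, on axes that start at 0. Slc38a5 and Slc7a8 have a tall bar in HpC1 (45.6 and 20.4), and Slc6a2, Slc6a19, Slc6a14 and Slc15a1 in HpC2 (3.69, 3.13, 1.68 and 1.60).

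Genes around the carriers were read from lists of pathway members. Of 12 enzymes of glutamine and glutamate, 9 were lower in HpC than in H and 3 higher, and 9 and 2 in pC, where 29.2% and 28.6% of all genes were lower and 30.7% and 31.1% higher. Gls2, a glutaminase of liver, was at 1.28 to 55.3 scaled TPM in HpC, 1.17 to 6.6 in pC and 453 to 619 in H, with differences from H of -5.46 ± 0.88 in HpC (limma adjusted p = 0.000372) and -6.84 ± 0.94 in pC (0.000129). Against pC, HpC had 1 of the 12 lower (8.33%, where 2.55% of all genes were lower). This was Gpt2, a mitochondrial alanine aminotransferase, at 36.2 to 60.8 in HpC, 103 to 158 in pC and 255 to 267 in H (-1.51 ± 0.21, 0.00335), the order seen for Slc38a4. The ATF4 response is the programme that cells start when amino acids run short. Of its 24 tested genes, 2 were higher in HpC than in pC and 0 lower (1.99% and 2.55% of all genes). They were Psat1, a serine synthesis enzyme, at 11.2, 26.8, 7.41 and 2.43 in HpC and 0.195 to 1.18 in pC (2.49 ± 0.57, 0.0358), and Stc2 at 1.19 to 4.59 and 0.244 to 0.389 (1.28 ± 0.29, 0.032). The call of Psat1 was lost under 11 of 20 alternatives and that of Stc2 under 9 of 19; without HpC1 and HpC2 together Psat1 was at 1.66 and not called. Against H, 11 of the 24 were higher and 5 lower in HpC (66.7%, against 59.9% of all genes), and 6 and 5 in pC (45.8%, against 59.6%).

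Of 28 tested genes of mTORC1 amino acid sensing, 2 were higher and 8 lower in HpC than in H (35.7%, against 59.9% of all genes). In pC 2 were higher and 9 lower (39.3%, against 59.6%). On TPM as deposited, Lamtor4, Lamtor2, Lamtor1 and Nprl2, the lower genes with the largest differences in HpC, lost their call (limma adjusted p = 0.0723 to 0.356). In pC, Lamtor4, Lamtor1 and Lamtor2 lost theirs (0.32 to 0.808), and Mtor turned to 0.52. The higher genes kept theirs under every alternative. By limma 0 passed between HpC and pC, against 4.54% of all genes, and 2 of the 28 had an unadjusted p under 0.05. Rragd, a small GTPase of that pathway, was at 43.0 to 77.0 scaled TPM in HpC, 21.6 to 34.9 in pC and 0.0684 to 1.48 in H, with 5.44 ± 0.32 and 4.25 ± 0.35 against H (limma adjusted p = 3.99e-07 and 3.04e-06) and 1.19 ± 0.32 between HpC and pC (0.0732). Of 14 tested glutathione and cysteine genes, 13 were lower in HpC than in H and 12 in pC (29.2% and 28.6% of all genes), with Ggt1 alone higher in each. Ggt1 was at 136 scaled TPM in HpC1 and 2.54 to 5.05 in the other HpC libraries, and its call was lost without H2 in HpC and without any 1 of the pC or H libraries in pC. Against pC, Gclc, the catalytic subunit of the first enzyme of glutathione synthesis, was higher in HpC (15.4 to 19.5 against 11.0 to 11.4; 0.57 ± 0.12, 0.0291), a call that 11 of 20 alternatives did not keep. Among the 9 tested accessory proteins and other carriers, Cltrn, which brings family 6 carriers to the cell surface, was at 8.5 to 8.78 in HpC, 4.14 to 6.63 in pC and 0 to 0.651 in H, higher than in H by 2.99 ± 0.21 in HpC (1.03e-06) and 2.42 ± 0.22 in pC (7.14e-06). Slc16a10 (TAT1), an aromatic amino acid carrier that works beside Slc43a2, was at 1.37 to 2.53 in HpC, 3.47 to 6.21 in pC and 7.46 to 9.69 in H, and fell by 1.01 ± 0.21 in HpC relative to pC (0.0258). Of 20 alternatives 6 did not keep this call, and on TPM as deposited pC minus H turned from -0.67 to 0.67. Of 7 tested osmotic and creatine genes, 4 were higher and 1 lower than in H in each cholangiocyte group (71.4%, against 59.9% and 59.6% of all genes). Between HpC and pC 0 passed by limma, against 4.54% of all genes, and 0 of the 7 had an unadjusted p under 0.05.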

How the data were processed

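RNA-seq of 10 libraries was used. Per the labels' protocols, RNA of sorted cells was made into libraries with a low-input kit and read single-end for 50 bases. The authors deposited TPM for each of 85276 transcripts in a table per library; the submitters' processing notes name kallisto, DESeq and the mm10 build, with no versions or roles. Transcripts were joined to genes through GENCODE M21 (81927 matched; the 3349 others held 4.22% to 9.06% of TPM and were left out) and summed to 29972 genes. TPM was divided by trimmed-mean scaling factors (30% of log ratios and 5% of levels trimmed at each end), which ran from 0.668 to 1.61 in HpC, 1.53 to 1.59 in pC and 0.499 to 0.585 in H. HpC, pC and H means of log2(scaled TPM + 1) were compared by limma 3.58.1 under R 4.3.3, its prior variance following the mean, in 1 fit of all libraries. The fit covered the 14765 genes that reached 1 TPM in 3 libraries or more, with Benjamini-Hochberg adjustment at 5%. Python 3.11.15, pandas 2.3.3 and matplotlib 3.10.9 prepared tables and figures. The test was checked on simulated data. A deposited 0 can be a failed estimate, and short reads can be split between similar or overlapping genes; whether counting used strand was not stated in the sources used.

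Members, lists, tests and alternatives were chosen with earlier results of these data known. Values are given for members called between HpC and pC, for the 8 members per direction with the largest called, non-overlapping difference from H, for the 5 highest members of each group, for obligate partners and, of each pathway list, for up to 4 called genes per comparison and direction; other members stand where their role is described. Alternatives were TPM as deposited, median-of-ratios scaling, a pseudocount of 0.1, no filter, protein-coding genes only, array weights, a replicate block, a fit of the 2 groups compared only, leaving out each library, leaving out HpC1 and HpC2 together and, added after seeing the data, protein-coding transcripts only. Promoters are from RefSeq. Some genes of the families and lists are not reported here.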

Additional observations from a re-analysis of the deposited data

Results flagged for a closer look

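In 14 of 89 genes examined 1 of the 4 HpC libraries stood apart, its gap to the nearest other library taking an unusually large share of the range of the group. Chance flags about 1 in 20 groups of this size, but the 14 of 89 cannot be set against that share. Transporter genes outside the test were examined only where an HpC library reached 1 scaled TPM, which favours genes high in a single library. Slc38a5, Slc7a8, Slc6a2, Slc6a14, Slc6a19 and Slc15a1 entered in this way. HpC1 was the library apart in 6 genes and HpC2 in 7. HpC1 was apart in Slc38a5 (gap 0.944 of the range), Slc7a8 (0.927) and Slc38a4 (0.831), and in the listed genes Nupr1 (0.925; 1285 scaled TPM against at most 10.3 in the other HpC libraries), Ggt1 (0.854; 136 against at most 5.05) and Gamt (0.855; 30.5 against at most 3.56). HpC2 was apart in Slc6a2 (0.962), Slc6a14 (0.950), Slc6a19 (0.925), Slc15a1 (0.848) and Slc6a8 (0.845), and in Ckmt1 (0.952; 147 against at most 13.3) and Cebpb (0.911; 115 against at most 72.8). HpC4 was low in Lamtor4 (0.887; 4.15 against at least 6.94). Without HpC1, Slc38a4 differed between HpC and pC by -1.74 (log2; adjusted p = 0.0051, limma).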

How the results depend on the processing

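Across 20 alternatives, 10 of which left out 1 library, 26 of 28 called members kept their call between HpC and H under every alternative that gave a value (lost: Slc6a9 and Slc38a7), 20 of 23 between pC and H (lost: Slc6a9, Slc7a13 and Slc38a7) and 1 of 3 between HpC and pC (lost: Slc38a4 and Slc43a2). Members higher in HpC than in pC numbered 1; the count was 2 on TPM as deposited, 6 with array weights, 0 without HpC1 and HpC2 together, and 1 to 4 on leaving out 1 library. Members lower in HpC than in pC numbered 2; the count was 1 with a pseudocount of 0.1, 1 without HpC1 and HpC2 together, and 0 to 2 on leaving out 1 library. Higher than H there were 16 to 18 in HpC and 11 to 15 in pC on leaving out 1 library, and lower 8 to 11 and 8 to 12; on TPM as deposited 23 rather than 13 members were higher in pC, with 63.4% rather than 31.1% of all genes. Also on TPM as deposited, signs turned for Slc6a9 (0.085), Cebpb (0.11) and Mfsd12 (0.36) in HpC minus H and for Slc38a7 (0.32), Cebpb (0.070), Mtor (0.52), Mfsd12 (0.39) and Slc16a10 (0.67) in pC minus H; the cause was not tested. Over all genes, calls between HpC and pC were 294 higher and 377 lower, and 831 and 966 with array weights, 138 and 133 without pC2, 159 and 171 without pC1, 219 and 224 without pC3, 191 and 224 without HpC3, 316 and 243 without HpC1 and HpC2 together, and 178 and 195 in a fit of these 2 groups alone. On TPM as deposited they were 0.975% and 2.76% of genes tested, against 1.99% and 2.55%. The number of reads is unknown, so what depth limits could not be stated.

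With the replicate number as a block, 2 members were higher in HpC than in pC (Slc6a13 added, adjusted p = 0.0158) and 1 lower (Slc38a4 not called, adjusted p = 0.0599), and over all genes 269 were higher and 304 lower. Correlations of same-numbered libraries ran from -0.0458 to 0.0839, and those of other pairs between groups from -0.184 to 0.167. Same-numbered libraries differed in age, so the numbers do not mark a shared animal. Whether they mark a shared batch cannot be told from these correlations.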
